A study of Mus musculus with 41 samples.

Results

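The 9 genes described here are the classic steroidogenic set of the Leydig cell: Star, Cyp11a1, Fdx1, Hsd3b1, Hsd3b6, Cyp17a1, Nr5a1, Lhcgr and Insl3. They were chosen by name, and each has 1 row among the 55536 gene rows of both count tables. The series compared mouse germ cells with and without the homeobox transcription factor RHOX10. Germ cells were sorted from C57BL/6 testes for a green fluorescent reporter driven by Oct4, and RNA-seq was made from 4 wild-type and 4 Rhox10-null libraries. Each of these libraries pooled the testes of 3 animals, whose age the sample labels do not give. The second system was germline stem (GS) cells, cultured from neonatal C57BL/6 testes. In all of them endogenous Rhox10 had been knocked down with a short hairpin RNA carried by a lentivirus, so cells with intact Rhox10 were not part of either group. These cells carried either a Rhox10-ERT2-mCherry fusion, which 4-hydroxytamoxifen switches on, or an ERT2-mCherry vector without Rhox10. iSLAM-seq, a sequencing method built on metabolic labelling of RNA, was made at 0, 0.5, 1, 2, 4 and 8 h, with 2 libraries per vector and time. CUT&Tag, which marks the DNA an antibody-bound protein sits on, was made in GS cells with the same knockdown and HA-tagged Rhox10.

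Leydig cells lie between the seminiferous tubules and make testosterone. Luteinizing hormone acts on its receptor, the product of Lhcgr, and the nuclear receptor NR5A1 (also called SF-1) drives transcription of most genes of the pathway. STAR brings cholesterol to the inner mitochondrial membrane, where CYP11A1 cleaves its side chain with electrons passed on by the ferredoxin FDX1. The 3-beta-hydroxysteroid dehydrogenases HSD3B1 and HSD3B6 and then CYP17A1 turn pregnenolone into androgens, and INSL3 is a peptide hormone that Leydig cells secrete. Germ cells are not the source of testicular androgens, and these genes are usually read as markers of a neighbouring cell type. Which cells held their RNA in the sort was not measured, and Star also had counts in all 24 iSLAM-seq libraries of cultured GS cells. NR5A1 is also present in Sertoli cells, and FDX1 serves other mitochondrial reactions in many cell types.

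Both systems held RNA of this gene set, but not of the same genes. In the sorted cells all 9 genes had counts, and Cyp11a1, Hsd3b1, Cyp17a1 and Star were higher in the libraries labelled Rhox10-null, Cyp11a1 by the most. The calls of Cyp17a1 and Star were lost with DESeq2, with no filter on low counts and without any one of several libraries. In cultured GS cells only Fdx1 and Star had counts in all 24 libraries, and Hsd3b1, Insl3 and Lhcgr had none. Fdx1 was the single member that differed between the vectors. None of the 9 genes had a RHOX10 peak.

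The promoters of 4 members are shown because these genes set the range of what follows. Cyp11a1 and Hsd3b1 rose most in the sorted cells, Hsd3b6 is the close relative of Hsd3b1 that was hardly detected there, and Fdx1 was the member that differed in culture. Each sequence runs 5′ to 3′ on the strand of the gene, from 250 bases before to 50 bases after a RefSeq start site, in the GRCm38.p6 build. Capitals mark TCAAGG, or its reverse complement CCTTGA, the first letters of the NR5A1 binding motif. The Cyp11a1 promoter lay at chr9:58014702-58015001 (plus strand), Hsd3b1 at chr3:98859745-98860044, Hsd3b6 at chr3:98814394-98814693 and Fdx1 at chr9:51963553-51963852 (all 3 on the minus strand).
Cyp11a1: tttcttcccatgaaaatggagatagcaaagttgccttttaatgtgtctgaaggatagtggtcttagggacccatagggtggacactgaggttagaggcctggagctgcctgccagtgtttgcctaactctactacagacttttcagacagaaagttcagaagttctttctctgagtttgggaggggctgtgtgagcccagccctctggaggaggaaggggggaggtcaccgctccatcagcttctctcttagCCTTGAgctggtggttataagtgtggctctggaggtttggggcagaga
Hsd3b1: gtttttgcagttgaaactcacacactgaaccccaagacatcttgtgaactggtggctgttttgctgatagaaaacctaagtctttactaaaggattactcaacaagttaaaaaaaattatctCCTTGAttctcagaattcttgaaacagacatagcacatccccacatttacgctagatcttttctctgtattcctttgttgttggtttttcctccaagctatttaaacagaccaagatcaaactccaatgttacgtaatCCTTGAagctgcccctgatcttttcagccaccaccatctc
Hsd3b6: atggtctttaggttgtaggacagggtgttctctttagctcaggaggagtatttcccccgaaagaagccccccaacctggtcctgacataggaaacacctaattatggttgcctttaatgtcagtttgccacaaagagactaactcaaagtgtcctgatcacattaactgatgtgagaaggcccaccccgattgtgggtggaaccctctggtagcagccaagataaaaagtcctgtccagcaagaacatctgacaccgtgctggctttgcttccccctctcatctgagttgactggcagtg
Fdx1: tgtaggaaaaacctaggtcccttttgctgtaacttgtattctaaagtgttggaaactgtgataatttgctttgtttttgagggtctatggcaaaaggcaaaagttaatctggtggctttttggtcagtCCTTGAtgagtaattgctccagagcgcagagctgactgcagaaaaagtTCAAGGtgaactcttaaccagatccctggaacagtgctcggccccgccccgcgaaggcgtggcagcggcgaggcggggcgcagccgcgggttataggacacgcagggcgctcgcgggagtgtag

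The RefSeq promoter table held 6 of the 9 members, with 7 promoters. Star, Cyp17a1 and Nr5a1 were the other three. AAGGTCA, the core motif of NR5A1, was searched on both strands and was in 0 of the 7 promoters, against 4.72% of all 32851 promoters of the same length. The shorter TCAAGG shares the letters AAGG with that motif and was chosen after these promoters had been read, so its counts are a description. It was present on either strand in 5 of the 6 members (Cyp11a1, Hsd3b1, Insl3, Lhcgr and Fdx1), against 16.36% of the 27025 genes in the table. Hsd3b1 and Fdx1 each had 2 copies, and the first copy began 128 bases before the start site in Hsd3b1 and 122 bases before it in Fdx1. Hsd3b6 had no copy in this window. The shown Cyp11a1 promoter was the one nearest a GENCODE start site of the gene, 45 bases away, and its copy lay just after the start site. A match of letters is not a binding site, and no binding of NR5A1 was measured.

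The libraries held 6602089 to 8278887 counts in RNA-seq and 9419615 to 12645845 in iSLAM-seq, so 3 counts, used here as the limit of detection, correspond to 0.362 to 0.454 and 0.237 to 0.318 CPM (counts scaled to a common library size). In RNA-seq, Rhox10 itself had 3, 10, 5 and 3 counts in the wild-type group and 11, 9, 4 and 6 in the null group. It was not lower in the latter, so the counts do not check these labels, and whether the counted exons lie within the deleted part is not given in the sources used here. In iSLAM-seq, Rhox10 stood at 34.0 to 46.6 CPM in the Rhox10-ERT2 libraries and 0.202 to 2.41 CPM in those with the empty vector. Markers of germ cells (21 genes) were present in every sorted library but summed to 396 to 432 CPM in wild-type and 217 to 230 CPM in null cells, with 18 of 20 tested genes lower. A single gene, Gm42418, took 58.0% to 59.4% of all counts in the wild-type RNA-seq libraries and 51.0% to 52.7% in the null ones. Its share moved with the genotype without overlap, and with the genes above 1% of any library left out, 4 members were called as before. Some libraries stood apart. In chi-square tests of counts between libraries of a group, the pairs with null library 4 gave 4.59 to 5.13 per degree of freedom against 1.42 to 1.62 for the other null pairs, and those with wild-type library 4 gave 1.84 to 3.03 against 1.25 to 1.72. Without null library 4 the test called 4 members, and without wild-type library 4 it called 2. In iSLAM-seq the empty-vector pair at 0.5 h gave 30.02, against 2.64 to 4.69 for the other pairs. Nothing in the labels says that libraries of a group came from separate litters or cultures, so p-values measure the spread between these libraries.

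In sorted germ cells the members covered a wide range of levels. Per length of transcript (RPKM, CPM divided by the exon length in kilobases), the wild-type order was Nr5a1 at 9.34 ± 0.271 (SD, n = 4), Hsd3b1 at 6.66 ± 0.901, Fdx1 at 2.07 ± 0.292, Star at 1.75 ± 0.166, Cyp17a1 at 1.72 ± 0.347, Cyp11a1 at 1.68 ± 0.242, Insl3 at 0.771 ± 0.385, Lhcgr at 0.281 ± 0.0188 and Hsd3b6 at 0.0211 ± 0.0423. Nr5a1 and Hsd3b1 stood above the rest with no overlap. Fdx1, Star, Cyp17a1 and Cyp11a1 overlapped one another and were not told apart in level. Insl3 stayed just under the lowest of their values, 1.32. Among all tested genes, the wild-type RPKM of Nr5a1 lay at the 92.2 percentile, that of Hsd3b1 at 87.9, those of Star, Cyp17a1 and Cyp11a1 at 47.4 to 48.7, and that of Lhcgr at 4.2. In the null libraries the order changed. Hsd3b1 reached 9.75 ± 1.40 RPKM and overlapped Nr5a1 at 9.47 ± 0.349. Cyp11a1, at 2.95 ± 0.239, now came next, above every value of Fdx1 (2.47 ± 0.0723).

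Of the 9 members, 7 passed the filter on low counts, and each of these passed on the wild-type libraries alone. By edgeR's quasi-likelihood test with Benjamini-Hochberg adjustment, 4 of the 7 were higher in the null libraries and 0 were lower. Over all 13538 genes tested, 37.5% were called in either direction and 18.7% were called higher. No member was lower at an unadjusted p under 0.05, and DESeq2 called 2 higher (Cyp11a1 and Hsd3b1) and 0 lower, with 1405 of all genes higher and 1575 lower. The median log2 fold change (null minus wild-type) was 0.34 over the 7 members, against 0.00 over all tested genes.

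**Figure D1:**
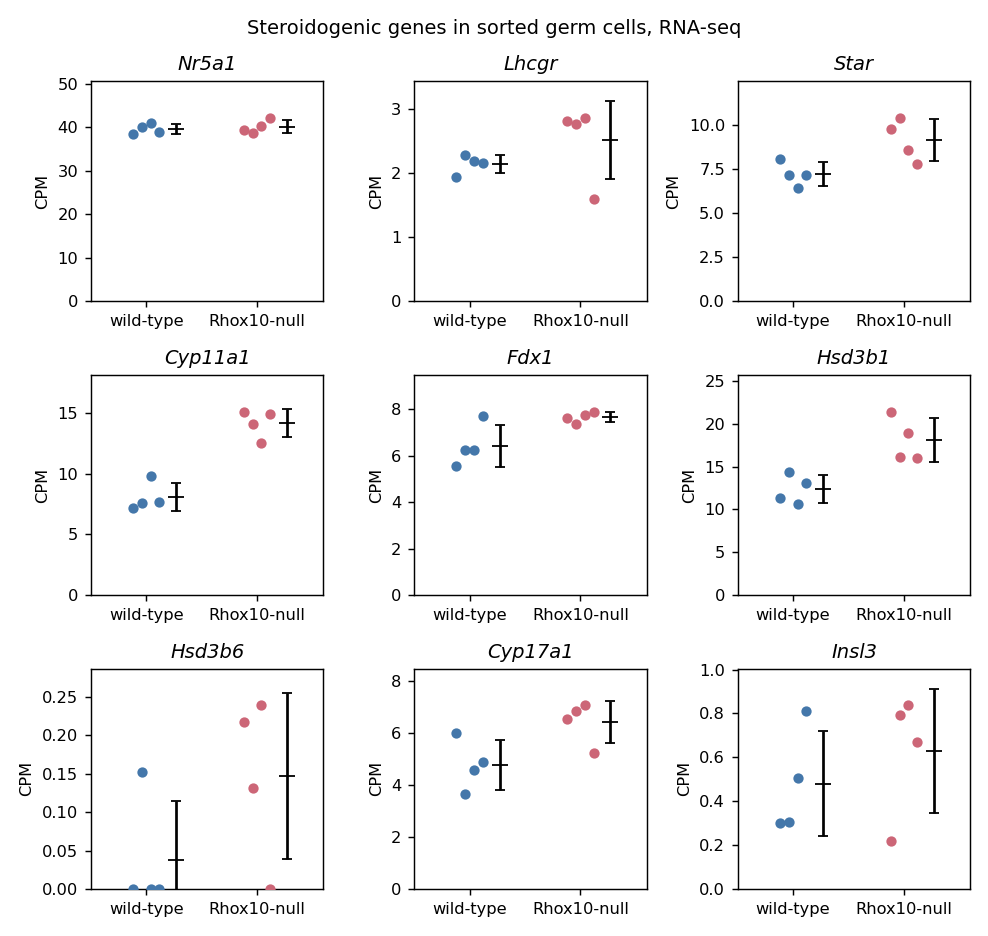
CPM of each member in the 4 wild-type (blue) and 4 Rhox10-null (red) RNA-seq libraries of sorted germ cells, with the mean and SD in black; each panel has its own axis from 0. The null values of Cyp11a1 (12.6 to 15.1 CPM) and Hsd3b1 (15.9 to 21.4 CPM) lie above all wild-type values, while the Nr5a1 groups (38.5 to 41.0 and 38.8 to 42.2 CPM) overlap.

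The enzymes and the cholesterol carrier are given first. Cyp11a1, on chromosome 9 from 58006411 to 58027023, catalyses the first and rate-limiting enzymatic step. Its wild-type values were 7.19, 7.62, 9.79 and 7.70 CPM (48 to 58 counts), and its null values were 15.1, 14.1, 12.6 and 14.9 CPM (105 to 139 counts). Every null library was above every wild-type library. The log2 fold change was 0.82 (SE 0.115, edgeR adjusted p = 2.05e-07), which is 1.75 times the wild-type mean. This change was at the 96.17 percentile of all tested genes. The long noncoding gene Gm17322 overlaps Cyp11a1 on the same strand and had 0 to 6 counts per library.

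Hsd3b1 lies on chromosome 3 from 98852194 to 98859794 and encodes a dehydrogenase of testis, ovary and adrenal gland. Its values were 11.4, 14.3, 10.6 and 13.1 CPM in wild-type and 21.4, 16.1, 18.9 and 15.9 CPM in null cells, again without overlap. On the log2 scale the rise was 0.56 (SE 0.105, edgeR adjusted p = 4.42e-05). Hsd3b1 and Cyp11a1 were thus the 2 members whose groups did not overlap, a pattern that 15.9% of all tested genes showed with the null values above. Hsd3b6, its neighbour on the same chromosome from 98805504 to 98814443, encodes the isoform of the adult Leydig cell. Its counts were 0, 1, 0 and 0 with the wild-type genotype and 2, 1, 2 and 0 with the null genotype, all below the limit of detection, and no fold is given. The main transcripts of both genes were 79.7% identical over 1791 aligned bases, with 72 bases as the longest identical run, so reads in such runs could not be assigned to one gene.

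Star and Cyp17a1 passed the test with smaller changes and overlapping groups. Star, on chromosome 8 from 25806555 to 25815982, had 8.08, 7.16, 6.41 and 7.16 CPM in wild-type libraries and 9.78, 10.4, 8.61 and 7.77 CPM in null libraries. One null value lay below the highest wild-type value, and the log2 fold change was 0.34 (SE 0.130, edgeR adjusted p = 0.0344). Cyp17a1, on chromosome 19 from 46667165 to 46673172, makes the androgen precursors. It had 5.99, 3.66, 4.56 and 4.86 CPM in the wild-type group and 6.52, 6.85, 7.06 and 5.22 CPM in the null group, with a log2 fold change of 0.43 (SE 0.161, edgeR adjusted p = 0.0321). Both calls were lost in the DESeq2 fit (adjusted p = 0.158 for Star and 0.142 for Cyp17a1) and with no filter on low counts (0.0610 and 0.0521). Both were also lost without null library 1 or 2 or without wild-type library 2, 3 or 4, and Cyp17a1 was lost without null library 3, which left 2 or 3 members called. Cyp11a1 and Hsd3b1 were called under all 16 alternatives.

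Fdx1, on chromosome 9 from 51943306 to 51963556, supplies CYP11A1 with electrons. Its wild-type values were 5.54, 6.25, 6.24 and 7.70 CPM, and its null values were 7.61, 7.38, 7.77 and 7.90 CPM. The null libraries lay close together, and 1 wild-type library reached into their range. Its log2 fold change of 0.24 (SE 0.136, edgeR adjusted p = 0.166) did not pass the threshold.

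The regulators gave no call. Nr5a1, on chromosome 2 from 38692656 to 38714542, was the member with the most counts, 243 to 363 per library. It had 38.5, 40.1, 41.0 and 38.9 CPM in wild-type libraries and 39.5, 38.8, 40.2 and 42.2 CPM in null libraries, and the groups overlapped almost fully. The log2 fold change was 0.02 (SE 0.0589, edgeR adjusted p = 0.817), so the SE is smaller than for any other member. The antisense gene Nr5a1os, which overlaps Nr5a1, had 0 to 5 counts per library. Lhcgr, on chromosome 17 from 88716481 to 88791990, had 1.95, 2.29, 2.19 and 2.16 CPM in the wild-type group and 2.83, 2.77, 2.87 and 1.61 CPM in the null group. Its first 3 null values were above every wild-type value and the fourth was below them all. The log2 fold change was 0.24 (SE 0.246, edgeR adjusted p = 0.460).

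The hormone gene Insl3, on chromosome 8 from 71689214 to 71690575, had 2, 2, 3 and 6 counts with the wild-type genotype and 2, 6, 7 and 5 with the null genotype, and did not pass the filter. At this depth no difference could be detected. Insl3 lies within the span of Jak3 on the same strand, which had 5 to 20 counts per library.

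Because Nr5a1 had ample counts, the other members could be set against it within each library, a measure that no scaling between libraries enters. Nr5a1 was already known to be level with TMM scaling (log2 fold change 0.02). These shares therefore restate the TMM result and are not separate support. Cyp11a1 counts were 18.7% to 23.9% of Nr5a1 counts with the wild-type genotype and 31.3% to 38.3% with the null genotype. For Hsd3b1 the shares were 25.9% to 35.7% and 37.8% to 54.3%. Neither pair of ranges overlapped, while those of Star (15.6% to 21.01% and 18.4% to 26.9%), Cyp17a1 (9.12% to 15.6% and 12.4% to 17.7%) and Fdx1 (14.4% to 19.8% and 18.7% to 19.3%) did. The ranges of Lhcgr (5.06% to 5.70% and 3.81% to 7.16%) overlapped too. The 9 members summed to 78.9 to 82.4 CPM in wild-type and 96.2 to 103 CPM in null cells, and Nr5a1 made up 48.8% ± 1.31 (SD, n = 4) of the former and 40.6% ± 2.37 of the latter.

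The scaling of the libraries set how large these changes were. With TMM, the scaling used above, 2526 genes were called higher and 2549 lower. With library totals in its place, the middle of the distribution of log2 fold changes moved by 0.34 (7189 higher, 639 lower). With scaling to the pan-germline list it moved by 0.88 (12158 higher, 72 lower). All 7 tested members were called higher under both of these, with Nr5a1 at log2 fold changes of 0.36 and 0.90, Lhcgr at 0.59 and 1.12, and Fdx1 at 0.59 and 1.12. Cyp11a1 was at 1.16 and 1.70. A change of scaling moves all genes by nearly the same amount, so the order of the members was fixed in advance. Per 1000 counts of the pan-germline list, the members had 183 to 206 counts in wild-type cells and 423 to 457 in null cells.

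**Figure D2:**
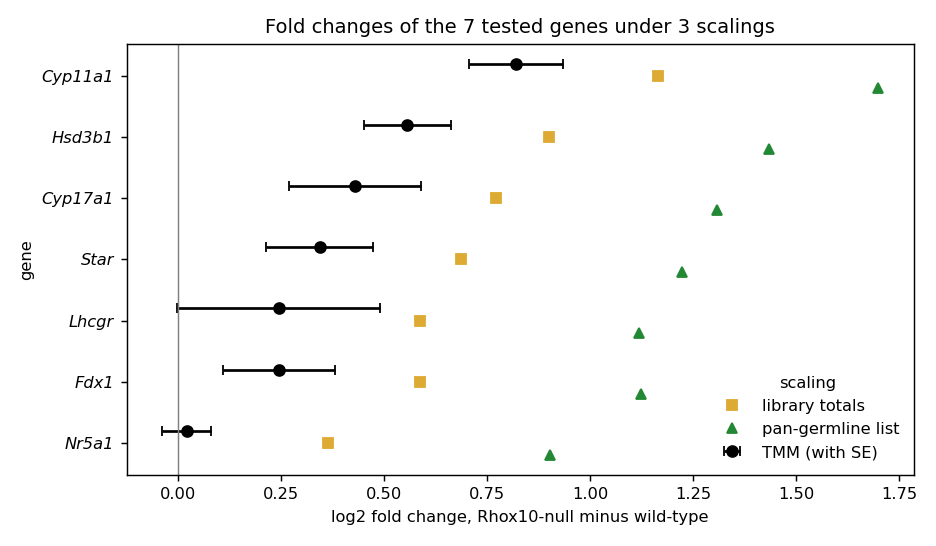
Log2 fold change (null minus wild-type) of the 7 tested members under TMM scaling (black, with its SE), library totals (yellow squares) and scaling to the pan-germline list (green triangles). Every member shifts to the right by about the same amount, as all genes do under a change of scaling. Cyp11a1 is therefore the rightmost gene and Nr5a1 the leftmost in each scaling.

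Markers of other cells moved with the members, and their part in the members' changes was not tested. Of a list of 12 other Leydig and progenitor genes, 6 of 9 tested genes were higher in the null libraries and 0 lower, and the list summed to 169 to 179 CPM in wild-type and 265 to 281 CPM in null libraries. The stromal matrix list had 5 of 5 tested genes higher (445 to 478 and 676 to 716 CPM), the peritubular myoid list 4 of 5 (47.0 to 56.5 and 63.9 to 68.8 CPM), and the endothelial list 4 of 6 (29.0 to 35.1 and 42.5 to 46.9 CPM). The macrophage list had 3 of 9 tested genes higher (30.8 to 33.6 and 40.4 to 44.0 CPM). The erythroid list had 6 of 6 higher, with sums of 1.35 to 4.05 CPM in wild-type and 77.9 to 86.3 CPM in null libraries. The Sertoli list differed least of these, with 2 of 11 tested genes higher and 2 lower. Its sums were 568 to 616.01 CPM in wild-type and 616.07 to 638 CPM in null libraries, so they came close but did not overlap. Among all tested genes, 18.7% were called higher and 37.5% in either direction. No marker of any of these lists was at 0 in all 8 libraries. In such bulk samples, fewer cells of a type and less RNA per cell cannot be told apart.

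**Figure D3:**
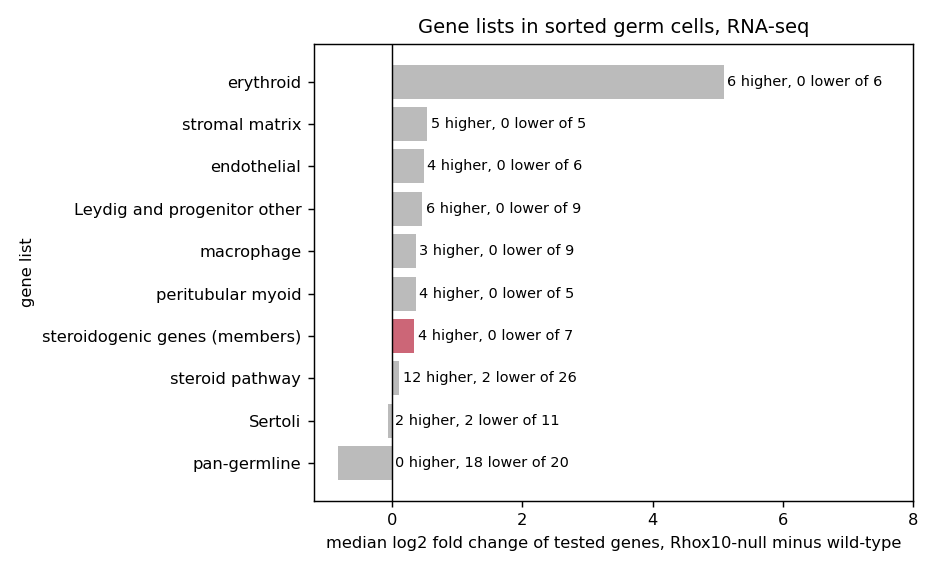
Median log2 fold change (null minus wild-type) of the tested genes of each list in sorted germ cells, with the numbers called higher and lower of those tested; the steroidogenic members are in red. The members (median 0.34) lie near the peritubular myoid (0.36) and macrophage (0.37) lists and between the Sertoli (-0.07) and stromal matrix (0.54) lists, while the erythroid list is at 5.09 and the pan-germline list at -0.83.

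The steroid pathway around the members was read from a list of 35 further genes. Of these, 26 were tested in RNA-seq, 12 were higher in the null libraries, 2 were lower and 12 did not pass, with a median log2 fold change of 0.11. Over all tested genes 18.7% were called higher and 37.5% in either direction. The largest rises by edgeR were those of Nr2f2, a nuclear receptor of interstitial progenitors (log2 fold change 0.65, SE 0.0907, adjusted p = 1.86e-07), and Nr4a1, an immediate early nuclear receptor that luteinizing hormone induces in Leydig cells (0.49, SE 0.0575, adjusted p = 3.16e-09). Gramd1b, a cholesterol transporter, rose by 0.48 (SE 0.0600), and the prolactin receptor gene Prlr by 0.44 (SE 0.111). Fdxr, whose product passes electrons to FDX1, rose by 0.31 (SE 0.0766), and Soat1, which esterifies cholesterol, by 0.30 (SE 0.0747). The log2 fold change of Nr0b1, the corepressor DAX1 that acts on NR5A1, was -0.56 (SE 0.186, edgeR adjusted p = 0.0153) with TMM, and turned to 0.32 with scaling to the pan-germline list. Its call was lost with DESeq2 (adjusted p = 0.0768), with library totals (0.323), without null library 1 (0.0510) and without wild-type library 3 (0.0664). Cyb5r3, a cytochrome b5 reductase, was at -0.34 (SE 0.0942, edgeR adjusted p = 0.00349) with TMM, at 0.00 with library totals, and turned to 0.54 with scaling to the pan-germline list. Under that last scaling 25 of the 26 genes were called, all of them higher, as were 12158 of all 13538 genes.

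The genes whose level followed the members most closely across the 8 RNA-seq libraries were found by Pearson correlation of log2(CPM + 1) with the members' mean. Among 8288 genes with a mean of at least 5 CPM, the highest were Plagl1 (r = 0.990), Gpc3 (r = 0.988), Slc4a7 (r = 0.988), Msh3 (r = 0.984) and Itih5 (r = 0.983). Plagl1, an imprinted zinc-finger gene, had 48.8 CPM in wild-type and 73.8 CPM in null cells, and Gpc3, a cell-surface proteoglycan, had 10.6 and 18.0 CPM. There were 100 genes with r of at least 0.95. The 8 libraries fall into 2 genotypes that the members themselves separate, and the values are a description without a p-value.

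In cultured GS cells most of the set was at or near 0 counts. Hsd3b1, Insl3 and Lhcgr had 0 counts in all 24 iSLAM-seq libraries, and 3 counts over all of them together correspond to 0.0115 CPM. Cyp17a1 had 0 to 5 counts per library (2 in all empty-vector libraries together and 12 in all Rhox10-ERT2 libraries). Nr5a1 had 0 to 5 (17 and 19 in all). Hsd3b6 had 0 to 13 counts, 4 in all empty-vector libraries and 35 in all Rhox10-ERT2 libraries, of which 13 were in a single library at 0 h. These 6 genes were not tested. The iSLAM-seq kit counts 3′ ends, so these values are not scaled to length and are not set against the RNA-seq levels. Whether the table counts all reads or only converted ones is not given in the sources used here.

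Of the 3 members tested in iSLAM-seq, 1 was higher with Rhox10-ERT2 in the difference averaged over 0.5 to 8 h, and 0 were lower. Over all 20642 genes tested, 37.1% were called in either direction and 18.7% were called higher. That average is not net of differences already there at 0 h. In the test of a change from 0 h, 0 of the 3 were called by edgeR or DESeq2, and 0 had an unadjusted p under 0.05, with 2.39% of all genes called by edgeR.

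Fdx1 was the member called. It ranged from 27.9 to 51.6 CPM (median 40.9) in the 12 empty-vector libraries and from 40.3 to 55.1 CPM (median 49.99) in the 12 Rhox10-ERT2 libraries, so the ranges overlapped. At 4 h the values were 40.2 and 39.3 CPM with the empty vector and 48.1 and 54.4 CPM with Rhox10-ERT2, and at 8 h 38.3 and 41.1 against 49.5 and 51.0 CPM. Both Rhox10-ERT2 values were also above both others at 0.5 and 1 h. At 2 h the groups overlapped, with 49.2 and 51.6 against 53.3 and 48.4 CPM. Over 0.5 to 8 h the means were 41.0 ± 6.34 (SD, n = 10) and 49.9 ± 4.17 CPM, with a log2 fold change of 0.30 (SE 0.0684, edgeR adjusted p = 0.00135). At 0 h it was 0.12 (SE 0.153, edgeR adjusted p = 0.697), and the change from 0 h was not called (adjusted p = 0.690), except without empty-vector library 1 at 0.5 h (adjusted p = 0.0327). That fit leaves the 0.5 h empty-vector group with library 2 alone, which belongs to the pair that stood apart and had the lowest Fdx1 value, 27.9 CPM. Without library 2 in its place the adjusted p was 0.648, and without the 0.5 h time point 0.510. The averaged difference was called in all of these, at 0.25 without library 2 or without the time point.

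Star had counts in every GS library, 85 to 200 each. It ranged from 8.94 to 16.9 CPM with the empty vector (median count 111.5) and from 7.59 to 13.3 CPM with Rhox10-ERT2 (median count 116.5). The means over 0.5 to 8 h were 11.4 ± 2.43 (SD, n = 10) and 11.1 ± 1.87 CPM, with a log2 fold change of -0.03 (SE 0.114, edgeR adjusted p = 0.868).

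Cyp11a1 had 20 counts in the 12 empty-vector libraries together and 55 in the 12 Rhox10-ERT2 libraries, and it passed the filter through 2 libraries, both with Rhox10-ERT2 (library 2 at 4 h and library 1 at 8 h). No empty-vector library reached the limit of the filter, so its entry into the test depended on the vector in which it was higher, and its fitted values are a description. At 4 h it had 0 and 0 counts with the empty vector and 7 and 17 with Rhox10-ERT2, and at 8 h 2 and 0 against 10 and 8. At 0 h each vector had 0 and 1 counts. The averaged log2 fold change was 1.56 (SE 0.864, edgeR adjusted p = 0.172), and the change from 0 h had an adjusted p of 0.529. One empty-vector library at 0.5 h held 8 of the 20 counts, and it belongs to the pair that stood apart. Without it the averaged log2 fold change was 2.60 (edgeR adjusted p = 0.0455), and without the whole 0.5 h time point 2.18 (0.0724). Without Rhox10-ERT2 library 2 at 1 h it was 0.70 and without library 2 at 2 h 0.94, both with an adjusted p of 1.00.

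**Figure D4:**
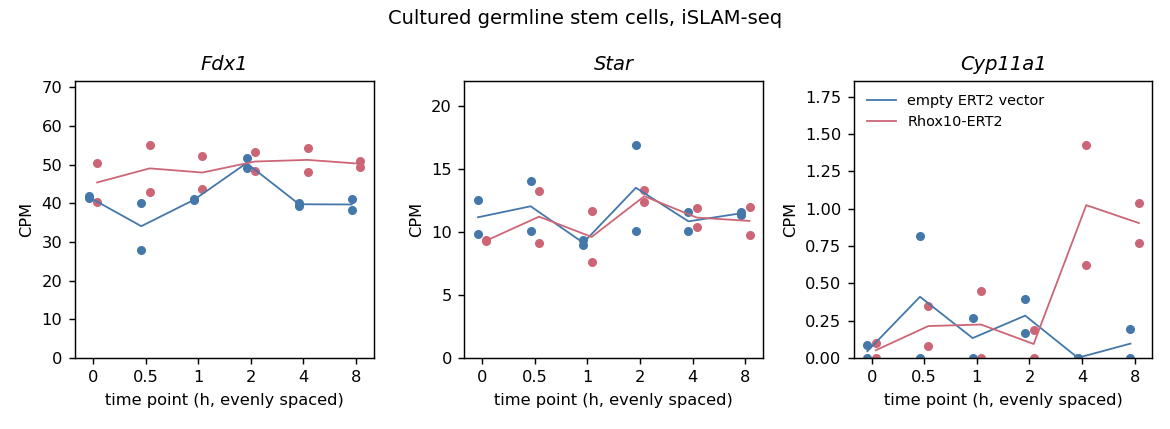
CPM of the 3 members tested in iSLAM-seq at each time point in GS cells with the empty ERT2 vector (blue) and with Rhox10-ERT2 (red); points are libraries, lines join the means of the 2 libraries, and each panel has its own axis from 0. Both Fdx1 values with Rhox10-ERT2 lie above both empty-vector values at 0.5, 1, 4 and 8 h, the Star values overlap at every time but 0 h, and Cyp11a1 reaches at most 1.43 CPM, with its highest means at 4 and 8 h with Rhox10-ERT2.

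Of the 35 pathway genes, 28 were tested in iSLAM-seq, and 12 were higher with Rhox10-ERT2 averaged over 0.5 to 8 h. Another 4 were lower and 12 did not pass. Among all tested genes, 18.7% were called higher and 37.1% in either direction. The median log2 fold change was 0.23 against 0.00 over all tested genes. The largest positive differences by edgeR were those of Nr2f2 (1.37, SE 0.0498, adjusted p = 8.50e-16), Gata6, a factor of gonadal somatic cells (1.18, SE 0.210, adjusted p = 9.15e-05), and the cytochrome b5 gene Cyb5a (0.93, SE 0.0478, adjusted p = 4.12e-13). The averaged difference was 0.87 (SE 0.0863) for Cebpb, 0.83 (SE 0.189) for Hsd11b1, a glucocorticoid-activating dehydrogenase, and 0.42 (SE 0.0403) for Cyb5r3. Nr2f2, Cyb5a, Cebpb and Cyb5r3 already differed at 0 h, with log2 fold changes of 1.31, 0.86, 1.46 and 0.42. Hsd11b1 was at 1.32 at 0 h (SE 0.447, edgeR adjusted p = 0.0616), above its average over the later times. The 4 genes called lower were Fdxr (-0.34, SE 0.0838), Gramd1b (-0.20, SE 0.0708), the lipoprotein receptor gene Scarb1 (-0.20, SE 0.0559) and the cholesterol carrier gene Stard4 (-0.16, SE 0.0496). The call of Gramd1b was lost when any of several libraries was left out (adjusted p up to 0.0858), as was that of Stard4 (up to 0.0878).

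Markers of other cells were also counted in the GS libraries, and their part in the difference of Fdx1 was not tested. Calls are of the difference averaged over 0.5 to 8 h, which is not net of differences at 0 h. The other Leydig and progenitor list had 4 of 7 tested genes higher with Rhox10-ERT2. It summed to 171 to 208 CPM with the empty vector and 215 to 300 CPM with Rhox10-ERT2. Of the 4, Thbs2, Vcam1 and Pdgfra were already higher at 0 h (edgeR adjusted p = 2.55e-08, 0.00124 and 0.0289). Ptch1 was not called at 0 h (0.401). The stromal matrix list had 4 of 6 higher (1510 to 2256 and 1917 to 2948 CPM). These were Col1a1, Col3a1, Dcn and Fn1, all already higher at 0 h (edgeR adjusted p up to 0.0184). The peritubular myoid list had 3 of 7 tested genes lower and 0 higher, and the endothelial list 3 of 6 lower and 0 higher. The macrophage list had 1 of 4 higher and 2 lower, and the erythroid list 1 of 2 lower and 0 higher. The Sertoli list had 4 of 12 higher and 4 lower, with Amh at 0 in all libraries, and 15 of 21 pan-germline genes were lower. Among all tested genes, 18.7% were called higher and 37.1% in either direction.

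No RHOX10 peak was annotated to any of the 9 members among the 5147 peaks the authors deposited, and no peak lay within 10 kb of a member. The nearest to a member was 21035 bases from Star, at the promoter of Bag4 (chr8:25785070-25785520, authors' score 616.4). The gaps of the other members to their nearest peak ranged from 48.2 kb (Nr5a1, at the promoter of Psmb7) to 326.4 kb (Hsd3b6). Of the 35 pathway genes, 12 had a peak annotated to them, and for 9 (25.71%) it lay within 3 kb of the start site, against 18.67% of 21924 protein-coding genes. Among the named ones, peaks lay at the promoters of Cyb5r3 and Stard4, in exon 1 of Scarb1 and in intron 1 of Prlr. The peak annotated to Gramd1b lay in intron 1, 40844 bases from the start site, and that annotated to Nr4a1 lay in intergenic sequence at -20421 bases. All peaks list the 3 RHOX10 libraries, and differences between libraries were not read from them.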

How the data were processed

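The values analysed are raw counts per gene that the authors deposited for RNA-seq and iSLAM-seq, 1 column per library, and 1 table of RHOX10 CUT&Tag peaks with the authors' score per peak. Per the submitters' processing notes, STAR 2.5.2b and featureCounts with GRCm38 were used for RNA-seq, mm10 for iSLAM-seq, and Bowtie2 2.2.5, HOMER and mm10 for CUT&Tag. The strand setting of counting is not given in the sources used here. Gene identifiers were matched to GENCODE M21 (55450 with a symbol), and 0 sample columns were left unmapped.

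Counts were tested with edgeR 4.0.16 (limma 3.58.1, R 4.3.3): TMM scaling, filterByExpr (minimum count 10), quasi-likelihood test, Benjamini-Hochberg adjustment over all tested genes, threshold 0.05. RNA-seq was fitted with genotype alone on 8 libraries. For iSLAM-seq the model had 12 group means (24 libraries). SEs are the absolute log2 fold change over the square root of F. CPM uses TMM-scaled library sizes, and RPKM also divides by the exon length in the table. On simulated data with 200 genes changed 2-fold, the RNA-seq test recovered 198, the averaged iSLAM-seq test 200 and the test of change from 0 h 67. False calls numbered 11, 14 and 3. The changed genes were drawn from those above a minimum count. Lhcgr and Cyp17a1 did not reach it in RNA-seq, nor Cyp11a1 in iSLAM-seq, and the dispersion was fixed at 0.02. This recovery therefore does not carry over to members with few counts or with smaller changes. Alternatives were DESeq2 1.42.0, its size factors, library totals, scaling to the pan-germline list, other filters, a replicate block, leaving out 0.5 h, and leaving out each library. Promoters were read from RefSeq (GRCm38.p6) with Python 3.11.15 and transcripts aligned with Biopython 1.88.

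The members, the gene lists and the tests were chosen with earlier results of these data known. Named beside the members were Rhox10, up to 6 called pathway genes with the largest rise and fall in each assay, and the 5 genes most like the members. Control CUT&Tag libraries were not used here.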

Additional observations from a re-analysis of the deposited data

Results flagged for a closer look

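Among 18 groups of 4 RNA-seq values (9 members in 2 genotypes), 2 held a library far from the other three, where chance gives about 0.9. For Lhcgr, null library 4 had 1.61 CPM (12 counts) against 2.77 to 2.87 CPM in the other null libraries, and its gap was 0.919 of the range of the group, above Dixon's 95% critical value. For Hsd3b6, wild-type library 2 held the only count of its group, which is below the limit of detection. A lone count in a group always gives a gap of 1.0 of the range, so this flag says nothing about the library.

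Of the 13 genes named from iSLAM-seq fits, Nr2f2 was the one whose difference between the vectors changed from 0 h to the later times (edgeR adjusted p = 0.000538). Its log2 fold change (Rhox10-ERT2 minus empty vector) was 1.31 at 0 h and 1.82 at 8 h. The difference was not steady between them. At 2 h the values were 84.3 and 82.7 CPM with Rhox10-ERT2, against 48.4 and 46.0 CPM. At 0 h they were 127 and 120 against 52.2 and 47.6 CPM. Nr4a1, named above for its rise in RNA-seq but outside the 13, changed too (edgeR adjusted p = 0.00607). Its log2 fold change was 0.70 at 0 h and -1.24 at 8 h. At 0.5 h its empty-vector values were 139 and 31.3 CPM, in the pair that stood apart.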

How the results depend on the processing

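The 4 members called in RNA-seq became 2 with DESeq2 and 2 without a filter (Star and Cyp17a1 lost), and 7 when scaled to library totals and 7 when scaled to the pan-germline genes. Leaving out each library gave 2 to 4. The 14 called pathway genes became 8 with DESeq2 and 25 with scaling to the pan-germline list, and 11 to 15 with a library left out. Over all 13538 tested genes, the main fit called 2526 higher and 2549 lower, and DESeq2 called 1405 and 1575. Without a filter, 2541 and 2330 of 33689 genes were called. Library totals gave 7189 and 639, and scaling to the pan-germline list gave 12158 and 72. The larger counts under these scalings are therefore not particular to the members or the pathway. Cyb5r3 turned from -0.34 to 0.000276 with library totals and to 0.536 with scaling to the pan-germline list, and Nr0b1 turned from -0.56 to 0.317 with the latter. Leaving out a library moved the log2 fold change of Nr5a1 between -0.00351 and 0.0343 and that of Star in iSLAM-seq between -0.0931 and 0.0619, so neither has a firm sign. In iSLAM-seq, 1 member was called in the average, and 1 to 2 with a library left out. The count for change from 0 h was 0, and 0 to 1 with a library left out. In those iSLAM-seq fits the lone library of a group is assumed to vary like the other groups. The count of members with the promoter motif was 0 for AAGGTCA and 5 for TCAAGG, the latter chosen after seeing the data. The causes of these shifts were not tested. For single genes, 572 of 630 comparisons with an alternative kept direction and side of the threshold. Of the others 39 lost the threshold, 7 gained it and 12 changed sign.

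Same-numbered libraries did not deviate together (mean correlation 0.005 in RNA-seq and 0.025 in iSLAM-seq), so the numbers do not pair them. With the replicate block, 4 members and 14 pathway genes were called in RNA-seq, as without the block. Low counts limit what can be said of Insl3, Hsd3b6 and Lhcgr in RNA-seq, and of all members but Fdx1 and Star in iSLAM-seq. In the latter, Hsd3b1, Insl3 and Lhcgr had 0 counts in all 24 libraries.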
